A study of Mus musculus with 4 samples.

Results

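Direct pathway striatal projection neurons are the GABAergic output neurons of the striatum that project to the substantia nigra and the internal pallidum. They carry the D1 dopamine receptor, which raises cAMP through the striatal G protein Gnal and the adenylyl cyclase Adcy5, and they release substance P (from Tac1) and dynorphin (from Pdyn). Their counterparts of the indirect pathway carry the D2 dopamine and A2a adenosine receptors and release enkephalin (from Penk). Both kinds lie intermingled in the striatum, across 2 compartments, the patch-like striosomes and the surrounding matrix.

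The nuclei came from brain sections of female 5XFAD mice of 7 to 10 weeks, a line that overexpresses mutated human amyloid precursor protein and presenilin under the neuronal Thy1 promoter. The mice had been given intravenously either PE-low EV or PE-high EV, that is, engineered extracellular vesicles with adipocyte lipids, poor or rich in phosphatidylethanolamine (PE). There were 2 libraries per group, each from 2 pooled mice, so single mice cannot be compared. All 4 libraries share the 5XFAD genotype and vesicle treatment, and neither wild-type nor saline-treated mice were analysed here.

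Members were chosen by their UMI counts, the number of distinct RNA molecules read per nucleus. Among barcodes with at least 1000 UMIs, 200 to 2500 genes and at most 10% mitochondrial UMIs, a nucleus was taken when it held at least 2 UMIs of Rarb and Rgs9 together and at least 2 of Pde10a, which mark projection neurons. It also needed at least 2 UMIs of Drd1, Tac1, Eya1, Isl1 and Pdyn together, and at most 1 of Drd2, Adora2a, Penk and Gpr6, below the former sum. This gate found 643 of 24446 kept nuclei (2.63%), which was 12.3% of the 5214 nuclei that met the projection neuron part alone. The mirrored gate gave 1132 indirect pathway nuclei. No barcode of a member was shared between libraries.

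The gate lies in the range of very few molecules. Of the members, 413 held exactly 2 UMIs of the 5 direct pathway genes, and 859 further projection neuron nuclei held exactly 1 of them and none of the indirect pathway genes. On the other side, 124 members held 1 UMI of the indirect pathway genes, and 11 nuclei with 2 of those and more direct pathway UMIs were left out. At least 2 UMIs of both sets were found in 51 projection neuron nuclei.

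The number of members was 268 and 146 in the PE-low EV libraries and 108 and 121 in the PE-high EV libraries. Their share of kept nuclei was 3.85% and 2.54% with PE-low EV and 1.91% and 2.00% with PE-high EV. The 2 groups did not overlap (3.19% ± 0.927 against 1.95% ± 0.0650, SD, n = 2), but an exact permutation test of 2 against 2 cannot go below p = 0.3333, its value here (two-sided). Fewer cells of this kind in the tissue and fewer nuclei past the gate cannot be told apart. Depth differed between the groups too: the median member held 2471 and 3481 UMIs with PE-low EV and 1823.5 and 1891 with PE-high EV. When the gate was applied after each nucleus had been thinned to 1000 UMIs, the difference of −1.24 percentage points became 0.102, so its direction was not stable.

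The share depended on what it was taken of. Of all projection neuron nuclei, direct pathway nuclei made up 15.2% ± 0.0764 with PE-low EV and 9.18% ± 0.222 with PE-high EV (SD, n = 2), without overlap and again at the smallest exact permutation p of 0.3333. This denominator includes 3439 nuclei that met neither gate. Direct pathway nuclei made up 37.3% and 36.0% of the direct and indirect classes together with PE-low EV and 37.4% and 33.3% with PE-high EV. These ranges overlapped (exact permutation p = 1.0, two-sided), and each of the 4 values lay inside the 95% Clopper-Pearson interval of the lowest library, 28.5% to 38.4%, which covers counting error only. With the gate applied after thinning, the difference of −1.34 percentage points became 3.13.

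**Figure D1:**
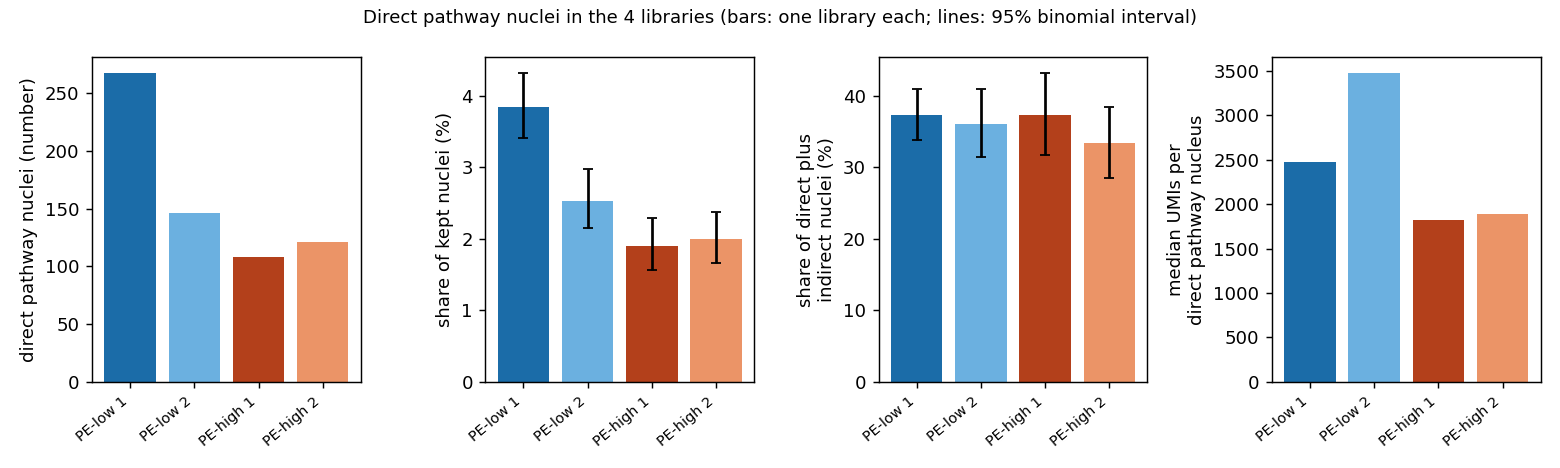
Bars show, for each library, the number of direct pathway nuclei, their share of kept nuclei (%), their share of direct plus indirect pathway nuclei (%) and their median UMIs; vertical lines are 95% Clopper-Pearson intervals. The share of kept nuclei was lower in both PE-high EV libraries, where the median depth was lower too, whereas the share of both projection neuron classes lay between 33.3% and 37.4%.

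The label was checked with genes the gate did not use. Values are given as CPM, counts of UMIs scaled to 1e6 in the summed nuclei of a library. Whether UMIs in introns were counted is not given in the sources used here, so levels are compared between groups of nuclei, not between genes. Ebf1, a transcription factor of direct pathway neurons (chr11:44617317-45008091, mm10, plus strand), stood at 170.9 and 269.1 CPM with PE-low EV and at 86.8 and 208.3 CPM with PE-high EV; sets of 4 values follow this order of libraries throughout. In indirect pathway nuclei it lay between 2.93 and 13.9 CPM, so the classes were separated in every library. Foxp2, a forkhead transcription factor (chr6:14901349-15441977, plus strand), stood at 841.5, 731.6, 882.0 and 766.7 CPM against 138.1 to 246.3 CPM in indirect pathway nuclei. Sfxn1, a mitochondrial carrier, was also higher in direct pathway nuclei in 4 of 4 libraries (means of 79.7 and 26.1 CPM), as was Slc35d3 at low level (11.4 and 1.90 CPM), but both lay near their level in near-empty barcodes described next (60.5 and 9.73 CPM). Only Chrm4, the M4 muscarinic receptor, could not be judged, with a UMI in 2 of 643 nuclei.

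The 10 general projection neuron markers outside the gate summed to 15342, 17120, 13878 and 16518 CPM in direct pathway nuclei. They reached 6983 CPM on average in all kept nuclei and 2558 CPM in near-empty barcodes of 200 to 400 UMIs, which hold mostly free RNA. None of the 10 was higher in direct than in indirect pathway nuclei in 4 of 4 libraries and 5 were lower in all 4, where 12.6% and 10.9% of all genes outside the gate with at least 50 CPM did so. Markers of other cells had a lower mean than in near-empty barcodes in every list: oligodendrocyte markers averaged 0.171 times the near-empty value, excitatory neuron markers 0.183 times, interneuron markers 0.169 times, astrocyte markers 0.186 times and microglial markers 0.206 times. Oligodendrocyte precursor markers stood at 0.601 times, and the endothelial list was low, with no UMI of Pecam1 and 0 to 36.6 CPM in sum, but above its near-empty level of 22.6 CPM in PE-high EV replicate 1.

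**Figure D2:**
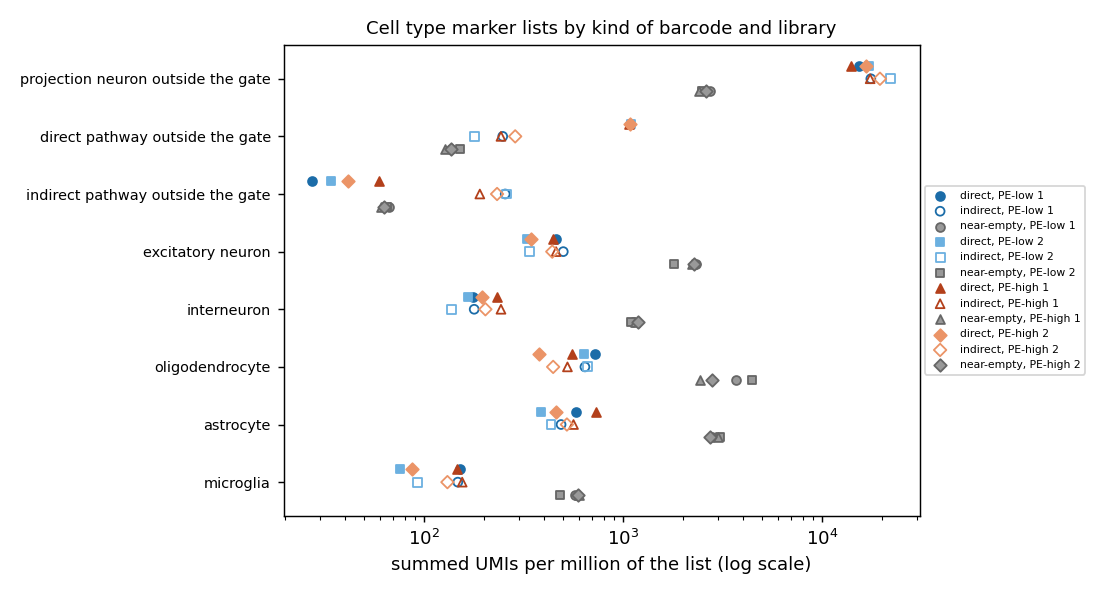
Summed level of each marker list (CPM, log scale) in direct pathway nuclei (filled colours), indirect pathway nuclei (open) and near-empty barcodes (grey), with one symbol per library. Projection neuron markers were far above the near-empty level in direct pathway nuclei (13878 to 17120 CPM), whereas the excitatory neuron, interneuron, oligodendrocyte, astrocyte and microglia lists lay below it in all 4 libraries.

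Detection of single genes showed how sparse the readout is. Drd1, the D1 receptor (chr13:54051183-54055705, minus strand), had a UMI in 373 of 643 members (58.0%). After thinning to 1000 UMIs it was detected in 25.3% of members (95% Clopper-Pearson interval 22.03% to 28.9%), in 0.795% of indirect pathway nuclei and in 2.04% of oligodendrocyte nuclei, a cell type that should lack it. Drd1 belongs to the gate of members and is capped in the mirrored gate, so these shares describe the selection and its sparseness and are no finding. Median depths before thinning were 2439 UMIs in members and 1294 in oligodendrocyte nuclei.

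Of the members, 270 (42.0%) held no Drd1 UMI and 129 (20.1%) held Tac1 as the only one of the 5 genes. Tac1 was also abundant in free RNA, where near-empty barcodes held 521.5, 221.3, 381.5 and 429.2 CPM of it. Nuclei with Tac1 alone had 124.4 CPM of Ebf1 and 852.0 CPM of Foxp2, against 230.3 and 819.6 CPM in Drd1-positive members. For Ptprm, a receptor phosphatase that was higher in indirect pathway nuclei, they had 70.4, 119.9, 75.1 and 177.9 CPM in the 4 libraries against 57.2, 30.2, 129.5 and 14.7 CPM, higher in 3 of 4. Indirect pathway nuclei averaged 7.73, 203.4 and 318.3 CPM for the same genes. Ebf1 in the Tac1-only nuclei lay between the Drd1-positive members and the indirect pathway nuclei in all 4 libraries, with 95.97, 227.7, 50.1 and 88.97 CPM against 211.2, 301.8, 120.9 and 205.6 CPM in Drd1-positive members. These values rest on few molecules, 39 UMIs of Ebf1 and 30 of Ptprm over all Tac1-only nuclei, so the order within a library is uncertain.

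Members were next compared with indirect pathway nuclei, the other class of striatal projection neurons. This contrast is the one the gate was built on, so its values are a description without a test. In the gate itself, Drd1 averaged 310.4 CPM in direct and 11.3 CPM in indirect pathway nuclei, Tac1 517.3 and 49.5 CPM, Pdyn 90.1 and 5.86 CPM, and Drd2 5.95 and 623.5 CPM. Of 3651 genes outside the gate that reached 50 CPM in the higher class, 98.8% lay within 2-fold. In 4 of 4 libraries, 459 were higher in direct and 398 higher in indirect pathway nuclei, and only 31 and 14 of them by at least 2-fold.

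The genes highest in direct over indirect pathway nuclei led with Ebf1 (23.8-fold). Next came Sntg2, a syntrophin, with 117.4 against 11.6 CPM (10.1-fold) and Cntnap3, a neurexin-family adhesion protein, with 135.6 against 14.4 CPM (9.43-fold). Zfp521, a zinc finger partner of Ebf factors, averaged 70.8 and 7.58 CPM. Adarb2, an RNA-editing family member, averaged 339.9 and 41.1 CPM. Lingo2, a leucine-rich repeat membrane protein, stood at 1673, 2411, 1997 and 2133 CPM in the 4 libraries against 219.1 to 375.5 CPM. The neuregulin receptor Erbb4 averaged 771.7 and 188.1 CPM, and the remaining genes were Foxp2, Sox1ot, Il1rapl2, Drd3 and Kcnk13. Drd3, the D3 dopamine receptor, was detected in 5.91% of members, 1.77% of indirect pathway nuclei and 0% of 491 oligodendrocyte nuclei after thinning, and its level was only 1.39 CPM in near-empty barcodes.

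At the other end, Grik3, a kainate receptor subunit (chr4:125490700-125714173, plus strand), stood at 10.1, 24.6, 32.0 and 29.2 CPM in direct and at 155.5 to 214.1 CPM in indirect pathway nuclei (8.07-fold). The M3 muscarinic receptor Chrm3 averaged 86.3 against 380.7 CPM, Ptprm 72.4 against 318.3 CPM and Nt5e, the ecto-5'-nucleotidase that forms adenosine, 20.1 against 90.4 CPM. Adk, the kinase that removes adenosine, was also lower, with 61.4 against 230.5 CPM. The netrin receptor Unc5d (100.9 against 401.4 CPM), Nell1, the calcium-binding protein Necab1, Fig4, Skap2, the homeobox factor Meis1 and the guanylyl cyclase subunit Gucy1a1 completed the 12.

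**Figure D3:**
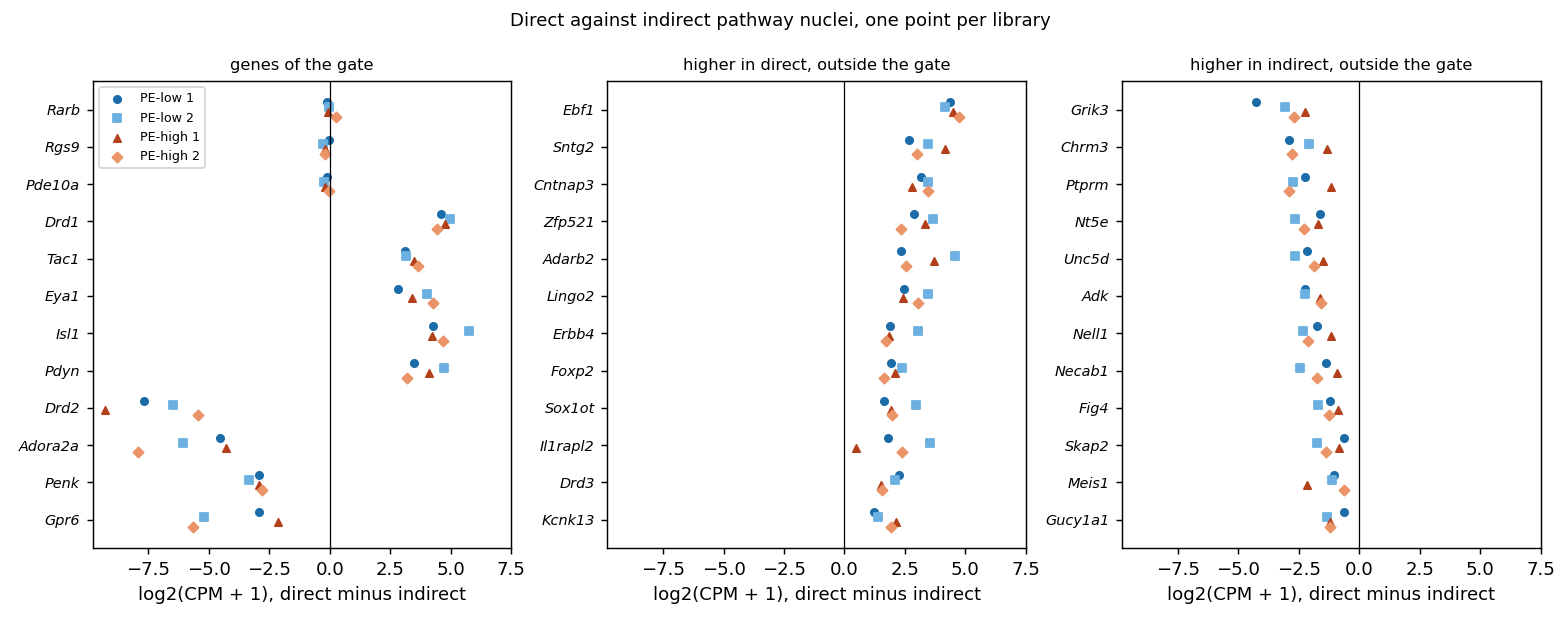
Difference of log2(CPM + 1) between direct and indirect pathway nuclei, one symbol per library, for the 12 genes of the gate and for the 12 genes most raised and most lowered outside it. Every point of the outer genes lies on one side of 0 in all 4 libraries, from 4.18 to 4.75 for Ebf1 and from −4.26 to −2.25 for Grik3.

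Gene lists of signalling were counted over genes outside the gate with at least 50 CPM, of which 12.6% were higher in direct and 10.9% higher in indirect pathway nuclei in all 4 libraries. Of 22 such genes of dopamine and cAMP signalling, 2 were higher in direct and 7 higher in indirect pathway nuclei. The former included the transcription factor Creb1, which averaged 76.3 CPM against 53.0 CPM. Among the 7 were cAMP phosphodiesterases: Pde4b averaged 1023 against 1596 CPM, Pde4d 249.5 against 391.4 CPM and Pde7b 1383 against 1605 CPM. Of 18 glutamate receptor genes, 2 and 4 differed in this way, among them Grik2 with 2221 to 2585 CPM in direct against a mean of 1762 CPM in indirect pathway nuclei. Of 35 ion channel genes, 6 were higher in each class. Kcnq5, a potassium channel of the M-current, stood at 3312, 3675, 3235 and 3517 CPM against 2757 to 2883 CPM. Cacna1e, the R-type calcium channel, was lower in direct pathway nuclei, with 676.4, 756.2, 758.6 and 804.2 CPM against 965.7 to 1136 CPM. Among other genes of this list, the calcium release channel Ryr1 averaged 84.3 against 37.7 CPM and Ryr3 1621 against 1924 CPM, each in the same direction in 4 of 4 libraries.

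Of the 19 genes of peptides and their receptors, only 4 lay outside the gate and reached 50 CPM, of which 0 were higher in direct and 1 higher in indirect pathway nuclei in all 4 libraries. The receptors described next were picked after their values were seen. Oprk1, the kappa opioid receptor bound by dynorphin, stood at 39.1, 36.0, 45.7 and 50.003 CPM in direct and at 18.1 to 29.9 CPM in indirect pathway nuclei. Oprd1, the delta opioid receptor bound by enkephalin, showed the opposite order, with 7.24, 9.48, 4.57 and 8.33 CPM against 44.0 to 56.5 CPM. Htr2c, a serotonin receptor, stood at 256.4, 305.1, 242.2 and 291.7 CPM against 363.5 to 420.3 CPM. The ranges of the classes did not overlap for these 3 genes. The share of all genes with such ranges is not given here, so no result is read from this. The ranges did overlap for Oprm1 (30.3 to 79.2 against 41.8 to 88.0 CPM), Htr4 (108.3 to 146.2 against 88.0 to 122.0 CPM) and Npy1r (5.69 to 18.3 against 7.60 to 17.6 CPM).

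The 20 genes with the most UMIs outside the mitochondrion held 14.4% to 14.96% of the UMIs and included the nuclear RNA Malat1, the long neuronal genes Phactr1, Rbfox1, Celf2, Nrxn3 and Dlg2, the potassium channel Kcnd2 and its partner Kcnip4, and the glutamate receptor Grm5.

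A further subtype of projection neuron, called eccentric, carries markers such as Otof, Casz1, Col11a1, Cacng5 and Pcdh8. After thinning, at least 1 UMI of these 5 genes was found in 67 of 643 direct pathway nuclei (10.4%, 95% Clopper-Pearson interval 8.17% to 13.04%). The share was 4.06% in indirect pathway nuclei (46 of 1132) and 2.44% in oligodendrocyte nuclei (12 of 491). By library the direct pathway share was 11.2%, 11.6%, 8.33% and 9.09%, above the indirect pathway share in each. The 5 genes summed to a mean of 118.1 CPM in direct and 46.9 CPM in indirect pathway nuclei. The mean was 82.4 CPM in all kept nuclei and 70.2 CPM in near-empty barcodes, so the level in members was not far above free RNA. Of the list, only Cacng5 was less frequent in members (0.622% after thinning) than in oligodendrocyte nuclei (0.815%). Otof, the calcium sensor otoferlin, led the list with 63.7, 58.7, 64.0 and 45.8 CPM in direct and 10.1 to 29.3 CPM in indirect pathway nuclei.

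Variation among the members themselves was examined along the striosome and matrix axis. Members with at least 1 UMI of Oprm1 (the mu opioid receptor), Kremen1 or Sema5b after thinning were taken as striosome-marker nuclei. There were 31, 16, 13 and 14 of them, 10.96% to 12.04% of the members of each library, and 11.9% of indirect pathway nuclei met the same condition. In oligodendrocyte nuclei 4.07% did (20 of 491), which serves as the background of this condition. The 74 striosome-marker nuclei were compared with the 569 others by edgeR's quasi-likelihood test on sums per library, with library as a covariate and without the 3 genes of the split.

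Of 3451 genes tested, 29 (0.84%) passed an adjusted p of 0.1, 10 higher (0.29%) and 19 lower (0.551%) in striosome-marker nuclei. Gpc6, a glypican of the cell surface (chr14:116925315-117976544, plus strand), stood at 1011, 934.3, 849.3 and 555.2 CPM in striosome-marker nuclei of the 4 libraries and at 247.5, 353.3, 342.1 and 249.3 CPM in the others. The 2 kinds of nuclei did not overlap, and the log2 fold change was 1.48 ± 0.20 (SE; edgeR adjusted p = 4.27e-06). Pde4b, a phosphodiesterase that degrades cAMP (chr4:102087543-102607259, plus strand), stood at 1815, 1137, 2239 and 1922 CPM against 996.3, 708.6, 1031 and 997.4 CPM. Its log2 fold change was 0.80 ± 0.14 (edgeR adjusted p = 0.00101). It was the only 1 of 25 tested genes of the dopamine and cAMP list past the threshold, where 0.84% of all tested genes were. Of 18 tested glutamate receptor genes, 1 passed as lower. The median of that list was −0.19, with 3 genes above 0. Alk, a receptor tyrosine kinase, rose by 2.15 ± 0.40 on the log2 scale (edgeR adjusted p = 0.00116) from few molecules, 37 UMIs in striosome-marker nuclei and 64 in the others. It may have passed the filter on low counts through striosome-marker nuclei alone, so its call and the size of its rise are uncertain.

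The other genes that rose were Necab1 (log2 fold change 1.44 ± 0.29), the glycosyltransferase Galntl6 (0.55 ± 0.14), the AMPA receptor scaffold Grip1 (0.73 ± 0.18), the Erbb4 ligand Nrg3 (0.46 ± 0.12), the sorting receptor Sorcs1 (0.66 ± 0.18) and the predicted genes Gm49906 and Gm16083. All 10 were higher in 4 of 4 libraries. Gm16083 rested on 16 UMIs against 15 (93.7 and 9.96 CPM, pooled), and it overlaps the start of Cd55 on the other strand. Like Alk, it may have passed the filter on low counts through striosome-marker nuclei alone, so its call and the size of its rise are uncertain.

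Among the genes that fell, Lingo2 stood at 900.4, 1422, 1853 and 1238 CPM in striosome-marker nuclei and at 1763, 2513, 2016 and 2230 CPM in the others, lower in 4 of 4 libraries, and dropped by 0.80 ± 0.14 on the log2 scale (log2 fold change −0.80, edgeR adjusted p = 0.00101). Kirrel3, an immunoglobulin-type adhesion protein, stood at 734.1, 1361, 617.6 and 469.8 CPM against 1409, 1618, 1384 and 1422 CPM (log2 fold change −0.92 ± 0.17). Others were Cntnap2 (−0.63 ± 0.12), the protocadherin Pcdh9 (−0.66 ± 0.14), the teneurin Tenm2 (−0.59 ± 0.15), the AMPA receptor partner Shisa9 (−0.90 ± 0.22) and Thsd7a (−0.92 ± 0.23).

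The serotonin receptor Htr1f had 27.7, 81.2, 38.6 and 42.7 CPM in striosome-marker nuclei against 174.7, 173.5, 274.7 and 217.0 CPM (log2 fold change −2.13 ± 0.43, edgeR adjusted p = 0.00343). Sgk1, a kinase on the list of matrix markers, had 13.9, 182.8, 38.6 and 213.5 CPM against 250.7, 298.9, 202.2 and 290.9 CPM (−1.55 ± 0.37, adjusted p = 0.0299 by edgeR). Slit2, an axon guidance ligand, was left with 2 UMIs in striosome-marker nuclei against 130 in the others, a ratio of 0.136 with a 95% counting interval of 0.0163 to 0.500. Further genes that fell were Sgcz, Nlgn1, Alcam, Fstl4, Cntnap5a, Samd5, Ptprd and Tafa1. Of these, Sgcz, Nlgn1 and Ptprd were lower in 3 of 4 libraries and the others in all 4. Slit2, Htr1f, Samd5 and Tafa1 were low in striosome-marker nuclei (11.7, 46.9, 52.7 and 29.3 CPM, pooled). They may have passed the filter on low counts through the other nuclei alone. Their calls and the size of their fall are therefore uncertain, and no support is read from their p-values.

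Of the fixed striosome list, 6 genes outside the split were tested and none passed. Outside the gate of members, the log2 fold change was 1.12 for Khdrbs3, 0.99 for Tshz1, 0.93 for Bach2 and −0.72 for Nnat. Tac1 (0.31) and Pdyn (−0.26) belong to that gate, so no result is read from them. The median over all 6, which includes them, was 0.62 against −0.03 over all tested genes. Of the 6 matrix markers tested, 1 (Sgk1) fell, where 0.551% of all 3451 tested genes did. The list's median was −0.51, with only Calb1 above 0. Oligodendrocyte markers stood higher in striosome-marker nuclei too, with a median of 0.67 over 4 tested genes and Mbp at 346.3, 426.5, 154.4 and 384.4 CPM against 213.5, 204.9, 197.0 and 124.7 CPM, although none passed. Their part in the result was not tested. The median depth was 2170, 3007.5, 1707 and 1483.5 UMIs in striosome-marker nuclei and 2485, 3574, 1900 and 1921 UMIs in the others.

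The same split in indirect pathway nuclei, an alternative added after these results were seen, gave 135 striosome-marker nuclei and 3 genes past the threshold (0.0691% of 4340 tested), of which only Gpc6 was among the 29. There Gpc6 had a log2 fold change of 0.86 ± 0.17 (edgeR adjusted p = 0.0188) and Alk of 1.07 ± 0.26 (adjusted p = 0.15, edgeR). Of the 28 genes tested in both classes, 24 had the same sign, whereas Necab1, Slit2, Pcdh9 and Alcam did not. Whether the 2 classes differed in this contrast was not tested.

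The count of 29 changed with the processing and with single libraries. It was 0 of 504 tested genes when the gate was applied after thinning to 1000 UMIs and 7 with sums of thinned UMIs. It was 16 without PE-low EV replicate 1, 25 without PE-low EV replicate 2, 47 without PE-high EV replicate 1 and 15 without PE-high EV replicate 2. Gpc6, Pde4b, Lingo2, Kirrel3, Cntnap2, Htr1f, Shisa9 and Sgcz were past the threshold in each of these 4 fits. For Htr1f the limit from the filter on low counts may hold in these fits too. The balance of higher and lower genes moved too. It was 1 and 6 with sums of thinned UMIs, 6 and 6 with DESeq2 and 5 and 111 with no filter on low counts. It was 2 and 14, 6 and 19, 10 and 37 and 3 and 12 in the 4 fits without one library, in the same order.

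**Figure D4:**
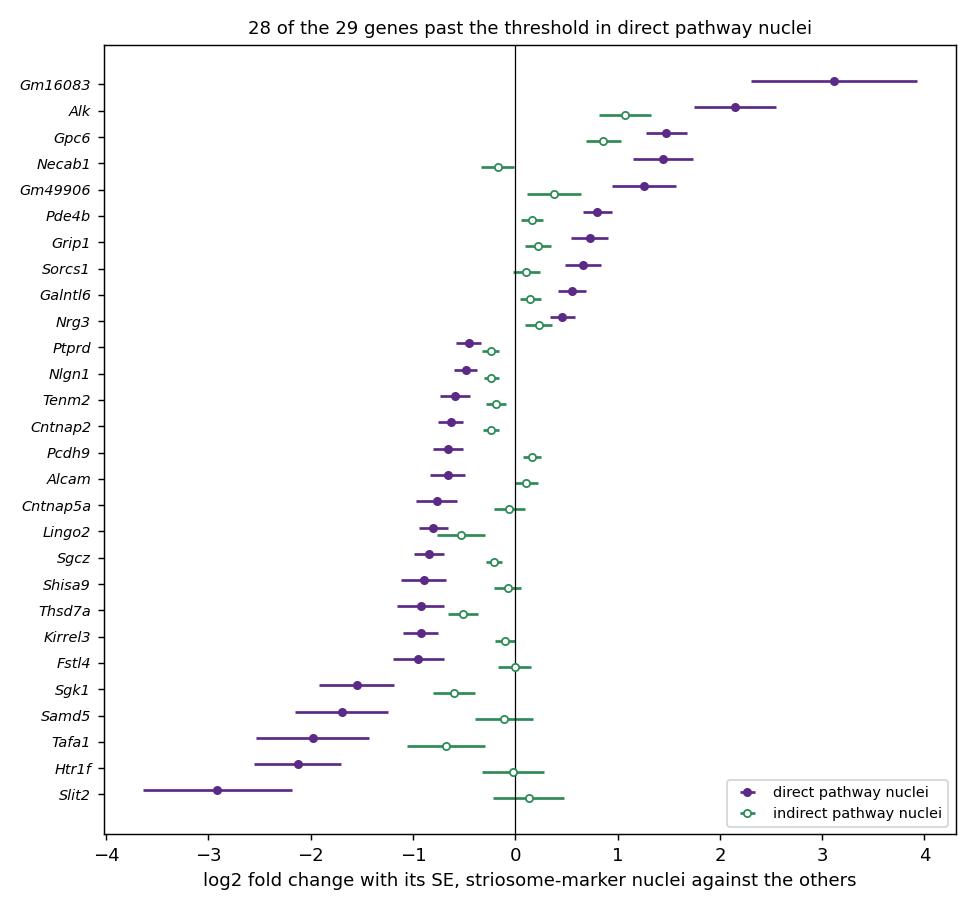
Log2 fold change with its SE of 28 of the 29 genes that passed the threshold, striosome-marker nuclei against the others, in direct pathway nuclei (filled) and for the same genes in indirect pathway nuclei (open). Estimates run from −2.92 for Slit2 to 3.11 for Gm16083 in direct pathway nuclei, and those in indirect pathway nuclei mostly lie nearer to 0. Both ends rest on few molecules, 2 UMIs of Slit2 in striosome-marker nuclei and 15 UMIs of Gm16083 in the others. Each may have passed the filter on low counts only through the nuclei where it was higher.

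The study asked how PE-rich vesicles act on the cells of the 5XFAD brain, and for direct pathway neurons this is the comparison of PE-high EV with PE-low EV. The summed members held 690462 and 527619 UMIs with PE-low EV and 218829 and 239986 UMIs with PE-high EV. Of 6054 genes tested with edgeR's quasi-likelihood test, 0 (0%) passed an adjusted p of 0.1, and 225 had an unadjusted p under 0.05. By the number of tests alone, 302.7 genes would be expected under 0.05. DESeq2 also called 0 genes, with 31 under an unadjusted 0.05. Leaving out one library gave 6 calls without PE-low EV replicate 1, 4 without PE-low EV replicate 2, 0 without PE-high EV replicate 1 and 4 without PE-high EV replicate 2. In these fits 1 group holds a single library, which is assumed to vary like the other group, since the spread comes from that group alone. The 5th and 95th percentiles of the log2 fold change over all genes were −0.62 and 0.63.

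The genes with the smallest p in each direction did not pass the threshold. Car10, a carbonic anhydrase-related protein that binds neurexins, stood at 53.6 and 94.8 CPM with PE-low EV and at 214.8 and 154.2 CPM with PE-high EV (log2 fold change 1.34 ± 0.30, edgeR adjusted p = 0.918). Zfpm2, a zinc finger cofactor, had 14.5 and 9.48 against 36.6 and 62.5 CPM (2.01 ± 0.53). The mitochondrial transcript mt-Nd3 had 460.6 and 619.8 against 1101 and 754.2 CPM (0.78 ± 0.21). The groups did not overlap in these 3 genes, but they were picked by their small p, so this adds no support.

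On the lower side, Ccdc6 had 55.0 and 55.0 CPM with PE-low EV and 18.3 and 12.5 CPM with PE-high EV (−1.82 ± 0.49), and Pacs2, a sorting protein, had 33.3 and 41.7 against 4.57 and 12.5 CPM (−2.05 ± 0.64). The gate for oligodendrocytes found 140 and 292 nuclei in the PE-low EV libraries and 33 and 26 in the PE-high EV libraries, and the summed oligodendrocyte list moved in the same direction in the members, with 718.4 and 636.8 against 552.9 and 379.2 CPM. In near-empty barcodes the list summed to 3704, 4427, 2424 and 2800 CPM. The part of free RNA in the list's level was not tested. For mt-Nd3, the median mitochondrial share of the members was 3.44% and 2.45% against 4.30% and 3.23%.

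By gene list, none of the members passed the test in either direction. The 5 direct pathway genes of the gate all stood above 0 with a median log2 fold change of 0.44, Drd1 for example with 262.1 and 265.3 against 347.3 and 366.7 CPM. A gate of a fixed number of UMIs selects higher CPM in shallower nuclei by its construction, so no response is read from them. The 10 projection neuron markers outside the gate had a median of −0.28 against −0.01 over all tested genes, with 9 below 0. Among them the dopamine-regulated phosphatase inhibitor Ppp1r1b had 92.7 and 75.8 against 27.4 and 83.3 CPM (−0.58 ± 0.38), Bcl11b had 434.5 and 432.1 against 283.3 and 404.2 CPM (−0.32 ± 0.21) and Adcy5 had 602.5 and 617.9 against 415.9 and 608.4 CPM (−0.24 ± 0.21). In each of the 3 the lowest value was that of PE-high EV replicate 1, the library with the fewest members, and without it the log2 fold changes of Ppp1r1b, Bcl11b and Adcy5 were −0.015, −0.093 and 0.0030. The list did not move as a whole. Foxp1 had 1844 and 1928 against 1531 and 1767 CPM, and Pde1b had 294.0 and 227.4 against 201.1 and 212.5 CPM. Without one library, Foxp1 ranged from −0.31 to −0.087 and Pde1b from −0.49 to −0.15, always below 0. Other genes of the list crossed 0 in such fits, Gnal for example from −0.58 to 0.21.

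Signalling lists had medians close to that of all tested genes. The median was −0.06 for 28 genes of dopamine and cAMP signalling, among them Drd1 and Pde10a, which belong to the gate. The part of the selection in that median was not tested. The median was −0.0037 for 21 glutamate receptor genes, −0.04 for 16 genes of GABA synthesis and receptors and −0.07 for 38 ion channel genes. Grm5 had 3318 and 3489 against 3368 and 3638 CPM. Pde10a had 3283 and 3542 against 2989 and 3471 CPM, but it belongs to the gate, so no response is read from it. The cannabinoid receptor Cnr1, also a marker of the dorsolateral striatum, had 262.1 and 252.1 against 159.9 and 204.2 CPM (−0.49 ± 0.24). Crym, which marks the medial striatum, had 55.0 and 64.4 against 109.7 and 83.3 CPM (0.70 ± 0.32). Neither passed, and the part of the section's position in these regional markers was not tested. Of the 19 immediate early genes, 3 passed the filter on low counts.

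Genes of interest from the study's work on neurons were looked up in the members. Emx1, a cortical transcription factor, had 1.45 and 1.90 against 4.57 and 4.17 CPM, which is 1 UMI in each library. S100b had 26.1 and 19.0 against 13.7 and 8.33 CPM and was too low to be tested. Ldhb had 169.5 and 77.7 against 68.5 and 108.3 CPM (−0.49 ± 0.34). Its log2 fold change was 0.18 without PE-low EV replicate 1 and −0.91 without PE-low EV replicate 2. Of the stress response genes, Xbp1 had 37.7 and 17.1 against 18.3 and 20.8 CPM, Atf4 20.3 and 7.58 against 18.3 and 20.8 CPM, and Eif2ak3 23.2 and 19.0 against 22.8 and 8.33 CPM. Each of these 3 overlapped between groups and was too low to be tested. The list of 18 unfolded protein response genes had 7 tested members, with a median of 0.10.

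Among amyloid genes, App had 560.5 and 540.2 against 566.7 and 512.5 CPM (−0.03 ± 0.19). Bace1, the beta-secretase, had 18.8 and 28.4 against 41.1 and 29.2 CPM (0.59 ± 0.50). Psenen, a gamma-secretase subunit, had 26.1 and 20.8 against 22.8 and 20.8 CPM and was too low to be tested. The 8 tested genes of amyloid precursor processing had a median of −0.20. Of the lipid genes, 7 of PE metabolism had a median of 0.10, with the ethanolamine kinase Etnk1 at 212.9 and 210.4 against 237.6 and 220.8 CPM, and 9 of the P4-type flippases had a median of −0.12, with Atp8a1 at 415.7 and 470.0 against 397.6 and 412.5 CPM.

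**Figure D5:**
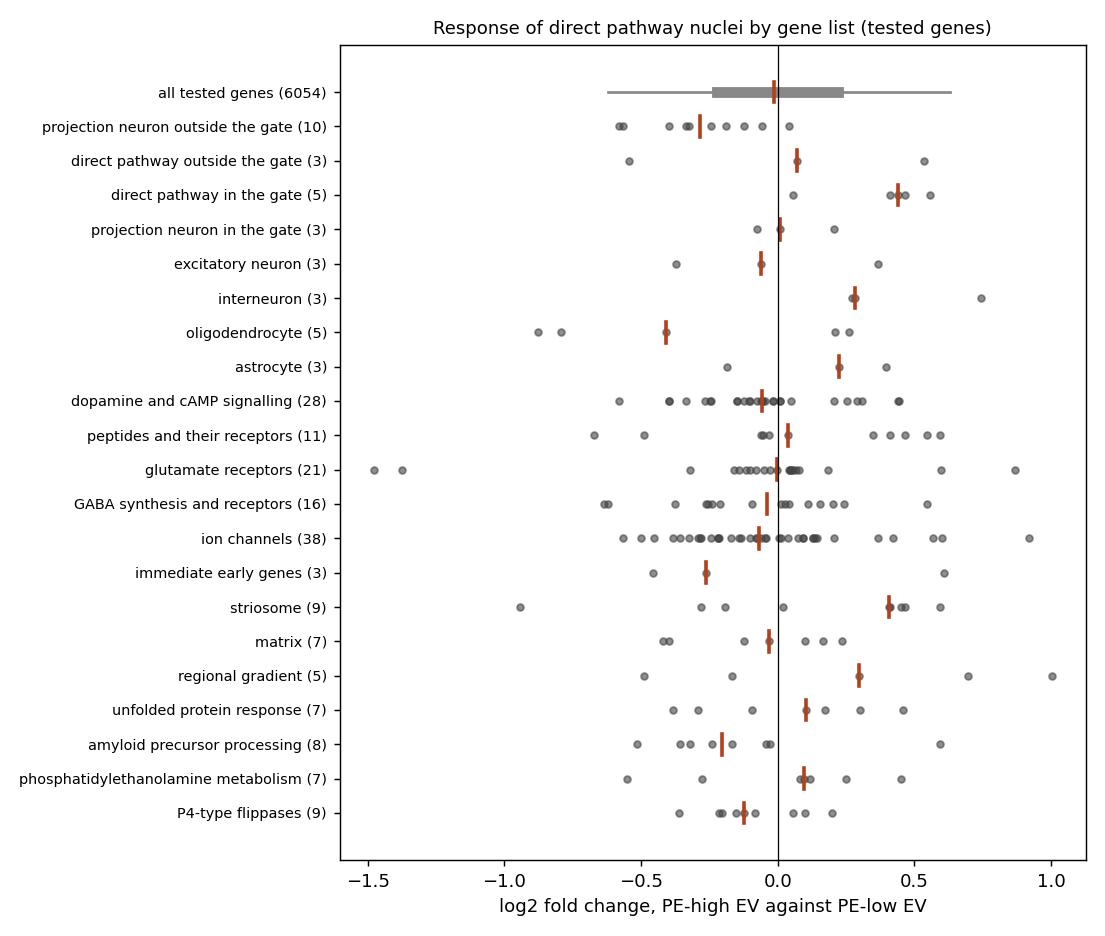
Log2 fold change of PE-high EV against PE-low EV for each tested gene of the lists with at least 3 tested genes (points, with the number tested in parentheses) and its median (vertical mark). The first row gives the distribution over all 6054 tested genes, from the 5th to the 95th percentile (thin line) and between the quartiles (thick line). Medians of the lists shown lie between −0.41 for oligodendrocyte markers and 0.44 for the direct pathway genes of the gate. The dopamine and cAMP list also holds genes of the gate.

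Whether direct pathway neurons responded otherwise than indirect pathway neurons was tested as an interaction over 8 sums with library as a covariate. DESeq2 called 0 genes, with 2 under an unadjusted 0.05. With edgeR, 310 had an unadjusted p under 0.05, where 379.85 would be expected by the number of tests alone. Of 7597 genes, 0 (0%) passed edgeR's adjusted p of 0.1. The count was 13 without PE-low EV replicate 1, 1 without PE-low EV replicate 2, 0 without PE-high EV replicate 1 and 5 without PE-high EV replicate 2, again with a single library in 1 group and the spread taken from the other. The genes with the smallest p, none past the threshold, were Khsrp, Psma6 and Lpl on the side of a higher response in direct pathway nuclei and Bicc1, Dus3l and Clstn1 on the lower side. Khsrp, a splicing regulator, rested on 20 and 14 UMIs with PE-low EV and 16 and 12 UMIs with PE-high EV in direct pathway nuclei, where its log2 fold change was 1.13 ± 0.40 against −0.63 ± 0.36 in indirect pathway nuclei. Bicc1, an RNA-binding protein, had a log2 fold change of −0.34 ± 0.46 in direct and 1.58 ± 0.42 in indirect pathway nuclei, a difference of −1.96 ± 0.54 (edgeR adjusted p = 1.00).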

How the data were processed

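Single-nucleus libraries (10x 3' v3.1) of 4 brain samples were used. The deposited files hold raw UMI counts per barcode and 32285 features, made by the authors with Cell Ranger 7.1.0 on mm10; whether intronic reads were counted is not given in the sources used here, and no filtering on cells had been applied. The authors' limit of 3% mitochondrial UMIs was an alternative. No doublet caller was run; nuclei with both gene sets at 2 UMIs were left out by the gate. Members and gene lists were chosen with earlier results of these data known.

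UMIs were summed per library and tested with edgeR 4.0.16 (R 4.3.3; filterByExpr, TMM, glmQLFit, two-sided, Benjamini-Hochberg over all tested genes, threshold 0.1); DESeq2 1.42.0 was an alternative. The scripts were tested on simulated data. Nuclei of a library are not replicates, and p-values measure only the spread between libraries. Each nucleus was thinned to 1000 UMIs by sampling without replacement where stated. Shares were compared by exact permutation tests, and intervals are 95% Clopper-Pearson intervals for counting error. Oligodendrocyte nuclei held at least 3 UMIs of Mag, Mog, Mobp and Ermn and at most 1 of Rbfox3, Syt1 and Snap25. Coordinates are from GENCODE M21.

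Genes were named as follows: the 12 genes of the gate; per comparison up to 10 genes each way with the smallest p past the threshold and the same direction in all libraries, or the 3 with the smallest p where fewer than 3 passed; the 12 largest differences each way between direct and indirect pathway nuclei at 50 CPM or more; the 20 genes with most UMIs; the highest genes of each list; and genes the study named for neurons. Other genes are named because they were past the threshold or of interest after their values were seen. Some genes that met these rules are not reported here.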

Additional observations from a re-analysis of the deposited data

How the results depend on the processing

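For PE-high EV against PE-low EV in direct pathway nuclei, the count of 0 became 3 with no filter on low counts, and 0 to 6 when one library was left out. With the replicate number as a block it became 6 (5 higher, among them Tafa1, Car10 and mt-Nd3, and Grm8 lower). Samples with the same number correlated by only 0.054 in their deviations, so the numbers are not taken as pairs. The interaction with class gave 1 call at the 3% mitochondrial limit and 0 to 13 without one library. The striosome comparison gave 29 calls in the main analysis, 16 at the 3% mitochondrial limit, 0 with the gate after thinning, 7 with sums after thinning, 12 with DESeq2 (11 of the 29 genes had no adjusted p there), 116 with no filter on low counts, 19 at an adjusted p of 0.05 and 15 to 47 without one library. It could not be fitted with the strict gate or with 2 UMIs of the 3 genes, since a library then had no striosome-marker nucleus. The cause was not tested. The share of kept nuclei (−1.24 percentage points) turned to 0.102 with the gate after thinning and was −1.89 to −0.584 without one library; the share of both classes (−1.34) turned to 3.13 with the gate after thinning and was −3.35 to 0.683 without one library. Among single genes, the log2 fold change of Isl1 (0.56 in the main analysis) turned to −0.31 at the 3% limit. That of Dpp10 (0.57) turned to −0.093 there. Eya1 (0.056) turned to −0.017 with no filter. Without one library, Eya1 ranged from −0.30 (without PE-high EV replicate 2) to 0.32, also turning without PE-low EV replicate 1 (−0.14). Isl1 and Eya1 belong to the gate. Grm8 (−1.37) ranged from −2.13 to 0.040 without one library, the last without PE-low EV replicate 2. Of 183 values of 20 striosome genes under alternatives, 84 lost the threshold and 0 changed sign. Of 282 values of 25 list medians under alternatives, 80 moved by more than the spread between replicates; for dopamine and cAMP signalling the median ranged from −0.21 (without PE-high EV replicate 2) to 0.022. The PE-high EV libraries were shallower, so low genes are limited most by depth there.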
